A study of Homo sapiens with 18 samples.

Results

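10 genes of the G1 phase machinery were examined: the cyclin genes CCND1, CCND2, CCND3, CCNE1 and CCNE2, the kinase genes CDK2 and CDK6, the pocket protein gene RB1, and the transcription factor genes E2F1 and E2F3. They were listed by name, with no measured value in the rule, and are 10 of the 61487 genes counted in each library. The cells were NCI-H1975, an established human lung adenocarcinoma line. Scramble cells, sgControl cells (a CRISPR control) and sgDAMP cells (a CRISPR knockout of DAMP, a peptide assigned to the lncRNA gene DSP-AS1) were each profiled as poly(A)-enriched mRNA and as ribosome footprints, the RNA stretches shielded by ribosomes. Each of the 6 groups has 3 libraries, 18 in all. Cells for footprints were treated with 100 micrograms per ml cycloheximide, which halts elongating ribosomes, and this held for all 3 conditions. The guide sequences, the number of clones behind the knockout and whether replicates are separate cultures are not stated in the labels. The p-values below therefore measure the spread between these libraries, which may be technical. The comparison of sgDAMP with sgControl asks which transcripts change in abundance or in translation when the peptide is lost.

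Entry into S phase is set by cyclin-dependent kinases that phosphorylate the retinoblastoma protein. D-type cyclins bind CDK4 and CDK6, E-type cyclins bind CDK2, and phosphorylation of RB1 releases the activating E2F factors, which drive genes of DNA replication, the E-type cyclin genes and E2F1 itself. NCI-H1975 cells carry mutant EGFR, a receptor whose signalling raises cyclin D1 transcription.

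Depth, the sum of gene counts in a library, lay between 10859527 and 12424884 for Scramble mRNA and between 17098397 and 17464782 for the other mRNA libraries. Footprint depth was 1035159 to 1302852 for Scramble libraries, 6845899 to 7840852 for sgControl and 6207783 to 6864945 for sgDAMP. Only 6.37% to 20.2% of the Scramble footprint counts fell on protein-coding genes, the lowest share in replicate 3, so few reads stand behind each gene there. The 3 footprint libraries of sgControl, and those of sgDAMP, differed by no more than sampling noise at nearly every gene. The chi-square per degree of freedom averaged 0.909 and 0.910 over the lowest 99% of genes, against 38.4 and 64.7 in the mRNA of the same conditions. Each of these footprint groups was therefore counted as 1 sample, its libraries were summed, and its ratios carry 95% counting intervals and no p-value. In mRNA, sgControl replicate 3 and sgDAMP replicate 2 stood apart from the other libraries of their groups on the first principal component, which held 61.4% of the variance. DSP-AS1 footprints summed to 175 to 216 counts per sgControl library and 0 to 1 per sgDAMP library, while its mRNA stood at 17.2 to 19.2 and 18.6 to 19.4 CPM. CPM scales the counts of a library to counts per 1000000. Of 10 epithelial and lung adenocarcinoma markers, KRT7, KRT8 and KRT18 were abundant, whereas NKX2-1, NAPSA and SFTPB, which mark alveolar lineage, were at 0 in the sgControl and sgDAMP footprints. EPCAM and KRT19, also epithelial markers of this list, were scarce in mRNA. Their summed mRNA counts were 13 and 33 in sgControl, 27 and 40 in sgDAMP, and 29 and 6 in Scramble. Summed footprints of these 10 markers were 12849 to 14158 CPM per sgControl library and 7323 to 7387 CPM per sgDAMP library. EGFR made up this difference, with 168010 summed footprints in sgControl and 9307 in sgDAMP, whereas KRT7 had 98619 and 99670 and KRT18 had 30773 and 30738. The part of EGFR in the results below was not tested. Summed markers of leukocytes reached at most 0.176 CPM in the mRNA of sgControl and sgDAMP. The 5 fibroblast markers summed to 1.02 to 1.75 CPM in sgControl footprints and 5.64 to 6.70 CPM in sgDAMP footprints, mostly COL1A1 (30 and 120 counts), with COL1A2, DCN and PDGFRB at 0. The part of this in the results below was not tested.

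The promoters of E2F1 and E2F3 are shown because both genes encode E2F factors and their promoters hold the letters of an E2F motif. The sequences are the 100 bases before the annotated start in RefSeq, build GRCh38.p14, on the strand of the gene, with motif matches in capitals. E2F1 lies at chr20:33686386-33686485 on the minus strand and E2F3 at chr6:20401779-20401878 on the plus strand.
E2F1: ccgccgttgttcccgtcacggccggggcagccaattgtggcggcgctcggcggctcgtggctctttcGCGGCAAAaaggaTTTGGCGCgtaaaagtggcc
E2F3: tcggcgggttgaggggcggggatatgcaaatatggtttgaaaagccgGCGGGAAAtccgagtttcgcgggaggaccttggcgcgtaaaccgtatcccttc
The motifs searched on both strands were TTTCCCGC, TTTCGCGC, TTTGCCGC and TTTGGCGC, whose matches may overlap one another. In E2F1 they lie from -33 to -26 and from -20 to -13 relative to the start, and in E2F3 from -53 to -46. Of the 10 genes, 6 had a promoter in the table (250 bases before to 50 after the start) and 2 held a match, while CCND1, CCND2, CCNE2 and CDK2 had no entry. Of 35116 promoters of this length, 3.31% held a match, and of the 27305 genes they belong to, 3.99% had a promoter with a match. Among 33 E2F target genes examined below, 15 of the 27 with an entry held one.

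In the knockout, CCND1 footprints were 1.80 times lower and CCNE1 footprints 1.51 times lower than in sgControl, and the low counts of CCNE2 and E2F1 were lower too. CCND3, CDK6, RB1 and E2F3 footprints differed by less than 1.5-fold. CCND1 was the 1 gene of the 10 whose mRNA and footprints were lower by a like amount, but its mRNA difference did not pass the test. CDK4, the usual kinase partner of cyclin D, had 115 times fewer scaled footprints, with no detectable mRNA difference.

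Between sgDAMP and sgControl mRNA, 0 of 8 tested genes of the set passed an adjusted p under 0.05 (edgeR quasi-likelihood test, Benjamini-Hochberg adjustment over all genes). The background was 0% of 14032 genes tested, of which 741 had an unadjusted p under 0.05, while DESeq2 called 21. Within the set CCND1 alone had an unadjusted edgeR p under 0.05, and none passed with DESeq2. CCND2 and CCNE2 had too few mRNA counts to be tested. For summed footprints, called here means at least 1.5-fold apart with an interval that excludes 1, over genes with at least 30 counts in both groups together. By that rule 4 of 9 genes of the set were lower and 0 were higher in sgDAMP, beside 11.3% lower and 14.1% higher among all 14289 genes (25.4% called). The median log2 ratio was -0.57 for the 9 genes and 0.01 for all genes. CPM values rest on total counts, whereas ratios and log2 differences use TMM scaling, which aligns the bulk of genes. Total counts put the median footprint ratio of all genes at 0.23 on the log2 scale and called 3228 genes higher and 934 lower, against 2021 and 1613 by TMM. That scaling left 3 of 9 lower, and 1 of 7 was lower with at least 100 summed counts.

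**Figure D1:**
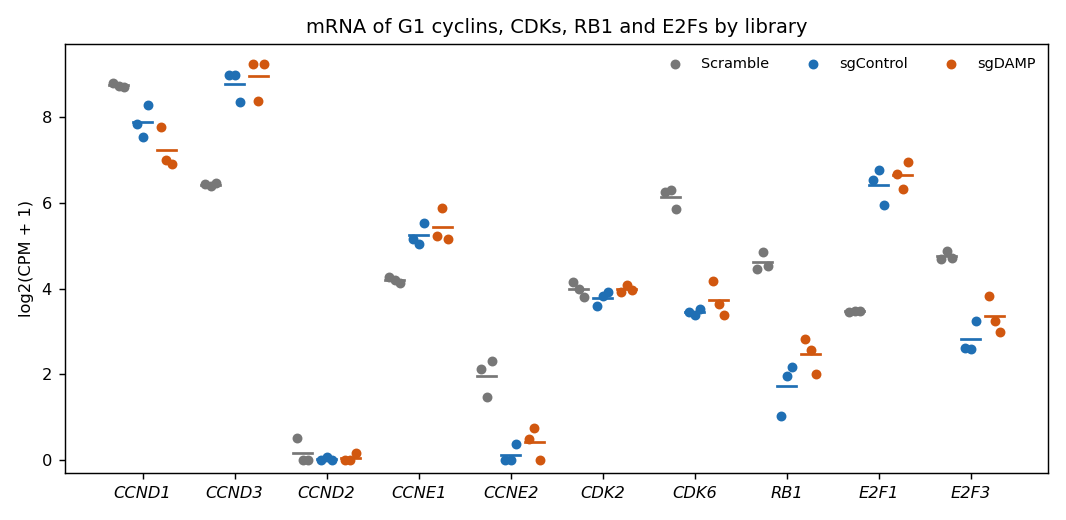
mRNA level of the 10 genes in each library as log2(CPM + 1), with points for libraries, horizontal lines for group means, and colour for condition. CCND3 and E2F1 sit lower in Scramble than in the other conditions, RB1, CDK6 and E2F3 sit higher, and sgControl and sgDAMP overlap for most genes.

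CCND1 (ENSG00000110092, chromosome 11, 69641156 to 69654474 in GRCh38) encodes cyclin D1. Its mRNA stood at 229, 186 and 310 CPM in the 3 sgControl libraries and at 216, 127 and 120 CPM in the sgDAMP libraries. The groups overlapped, since the first sgDAMP library lay above the second sgControl library. The log2 difference was -0.80 (SE 0.29, n = 3 against 3, edgeR adjusted p = 0.862), or -0.49 without the pair of mRNA libraries that stood apart. CCND1 footprints reached 587, 570 and 611 CPM in sgControl and 393, 384 and 367 CPM in sgDAMP, with no overlap. The summed counts were 13247 and 7582, a scaled ratio of 0.555 (95% counting interval 0.539 to 0.571), or 0.647 with total counts. The chi-square per degree of freedom of CCND1 footprints was 5.58 in sgControl and 2.93 in sgDAMP. Both lie above the averages given above, so the counting interval may be too narrow. Footprints relative to mRNA differed by -0.04 on the log2 scale (SE 0.61), near 0 and on either side of it depending on the scaling.

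CCND3 (ENSG00000112576, chromosome 6, 41934933 to 42050035) encodes cyclin D3, which can pair with the same kinases. Its mRNA stood at 504, 502 and 328 CPM in sgControl and at 603, 334 and 606 CPM in sgDAMP. The lowest library of each group was the one that stood apart in mRNA, and the group difference was 0.06 on the log2 scale (SE 0.32, edgeR adjusted p = 0.970). CCND3 footprints were few for this mRNA: 45.3, 51.7 and 46.1 CPM in sgControl and 53.5, 53.8 and 53.5 CPM in sgDAMP, with a scaled ratio of 0.962 (interval 0.883 to 1.05) that was 1.12 with total counts. CCND2, which encodes the third D-type cyclin, had 0 footprints in all 9 footprint libraries. Its mRNA counts were 5, 0 and 0 in Scramble, 0, 1 and 0 in sgControl and 0, 0 and 2 in sgDAMP. A count of 0 over a footprint group allows up to 0.134 CPM in sgControl and 0.151 CPM in sgDAMP, for counting error only. CCND2 was thus not detectable in footprints at this depth.

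CCNE1 (ENSG00000105173, chromosome 19, 29811991 to 29824312) encodes cyclin E1, the activator of CDK2 at the G1 to S transition. Its mRNA stood at 34.4, 32.2 and 45.5 CPM in sgControl and at 36.7, 58.2 and 34.7 CPM in sgDAMP. The highest library of each group was again the one that stood apart, and the log2 difference was 0.08 (SE 0.29, edgeR adjusted p = 0.953), or -0.06 without both. Its footprints were 42.5, 46.8 and 46.0 CPM in sgControl and 33.5, 37.2 and 34.1 CPM in sgDAMP, with no overlap. The summed ratio was 0.664 (interval 0.602 to 0.732), just past the 1.5-fold limit, and 0.774 with total counts, which is short of it. It was also short of it at 0.675 without sgControl footprint replicate 2, and at 0.679 and 0.677 without sgDAMP footprint replicates 1 and 3. CCNE2 encodes cyclin E2, and its span overlaps those of INTS8 and NDUFAF6. Its footprint counts were 21, 11 and 27 in sgControl and 6, 10 and 5 in sgDAMP, which is 3.07, 1.40 and 3.47 against 0.967, 1.46 and 0.732 CPM. The summed ratio was 0.345 (interval 0.199 to 0.576), from 59 and 21 counts, and the libraries overlapped. Its chi-square per degree of freedom was 3.54 in sgControl footprints, so this interval too may be too narrow.

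CDK2 (ENSG00000123374, chromosome 12, 55966830 to 55972789) encodes the kinase that cyclins E and A activate. CDK2 mRNA stood at 11.0, 13.2 and 14.1 CPM in sgControl and at 14.2, 15.9 and 14.6 CPM in sgDAMP. These groups did not overlap, yet the scaled log2 difference was only 0.09 (SE 0.28, edgeR adjusted p = 0.945). Its footprints were 59.0, 55.1 and 57.4 CPM in sgControl and 44.8, 45.9 and 43.8 CPM in sgDAMP. The ratio was 0.674 (interval 0.618 to 0.735), or 1.48 times lower, just short of the 1.5-fold limit that CCNE1 passed at 1.51. CDK2 passed it at 0.666 when scaled on protein-coding genes and at 0.660 without sgControl footprint replicate 2. CDK6 (ENSG00000105810, chromosome 7, 92604921 to 92836573), a partner of D-type cyclins, had footprints of 17.4, 15.8 and 16.4 CPM in sgControl and 20.1, 18.8 and 23.7 CPM in sgDAMP. They did not overlap in CPM, but the scaled ratio was 1.09 with an interval from 0.943 to 1.25, and 1.27 with total counts. CDK6 mRNA stood at 9.91, 9.36 and 10.4 CPM in sgControl and at 17.0, 11.6 and 9.43 CPM in sgDAMP, with a log2 difference of 0.20 (SE 0.30, edgeR adjusted p = 0.897).

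CDK4, not one of the 10, was added as the usual partner of cyclin D. Its footprints were 2581, 2180 and 1890 CPM in sgControl and 23.4, 21.9 and 21.8 CPM in sgDAMP. The summed counts of 49474 and 444 give a footprint level 115 times lower in sgDAMP (interval 105 to 127). The sgControl libraries differed beyond sampling noise for this gene, with a chi-square per degree of freedom of 396, so this interval may be too narrow. CDK4 mRNA stood at 255, 249 and 300 CPM in sgControl and at 214, 336 and 304 CPM in sgDAMP, a log2 difference of -0.03 (SE 0.28, edgeR adjusted p = 0.982) that was 0.09 with total counts. In Scramble footprints CDK4 had 48, 62 and 19 counts.

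RB1 (ENSG00000139687, chromosome 13, 48303751 to 48481890, with LPAR6 inside its span) encodes the retinoblastoma protein, which holds E2F factors inactive until phosphorylated. It had many footprints for little mRNA. Its footprints were 124, 118 and 123 CPM in sgControl and 138, 136 and 124 CPM in sgDAMP, with a scaled ratio of 0.935 (interval 0.886 to 0.987), short of 1.5-fold and 1.09 with total counts. RB1 mRNA stood at 1.04, 2.92 and 3.49 CPM in sgControl and at 6.12, 4.93 and 3.01 CPM in sgDAMP. The groups overlapped, and the log2 difference of 0.77 had an SE of 0.44 (edgeR adjusted p = 0.862).

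E2F1 (ENSG00000101412, chromosome 20, 33675477 to 33686385) encodes an activating E2F factor. It had the opposite balance to RB1, with abundant mRNA and almost no footprints. Its mRNA stood at 91.5, 108 and 61.1 CPM in sgControl and at 101, 78.5 and 122 CPM in sgDAMP, a log2 difference of 0.07 (SE 0.31, edgeR adjusted p = 0.963). Its footprint counts were 8, 8 and 10 in sgControl and 0, 4 and 3 in sgDAMP, with no overlap. The summed ratio was 0.261 (interval 0.0956 to 0.617), a wide interval since only 26 and 7 reads stand behind it, and leaving out 1 library brought the gene under 30 counts in 4 of 6 cases. E2F3 (ENSG00000112242, chromosome 6, 20401879 to 20493714), another activating factor, had footprints of 35.1, 37.6 and 35.6 CPM in sgControl and 38.0, 33.5 and 31.1 CPM in sgDAMP. The ratio was 0.809 (interval 0.730 to 0.897). E2F3 mRNA stood at 5.13, 5.03 and 8.53 CPM in sgControl and at 13.2, 8.54 and 6.94 CPM in sgDAMP, which overlap, with a log2 difference of 0.47 (SE 0.34, edgeR adjusted p = 0.862).

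**Figure D2:**
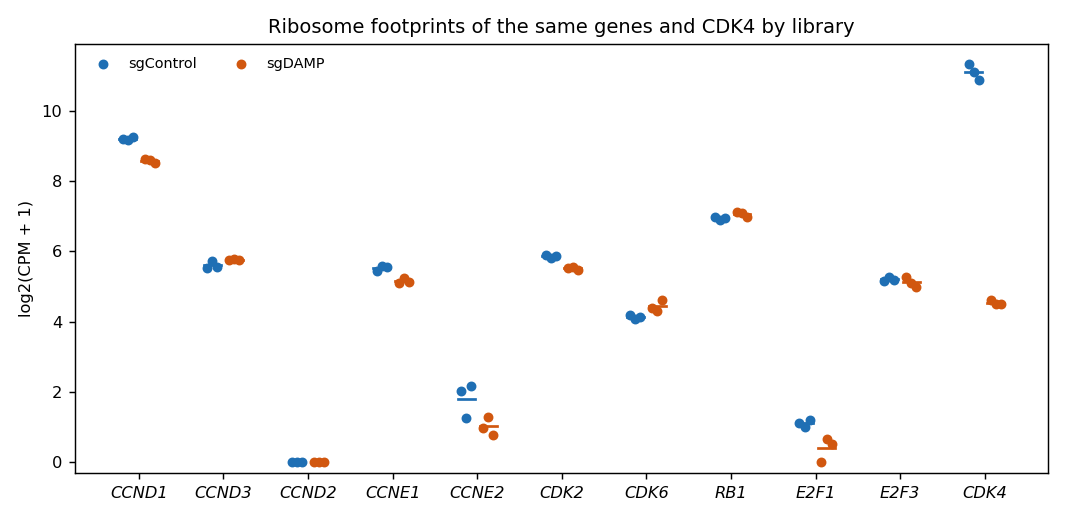
Footprint level of the 10 genes and CDK4 in each sgControl and sgDAMP library as log2(CPM + 1), with points for libraries and lines for means. CDK4 falls from 1890 to 2581 CPM in sgControl to 21.8 to 23.4 CPM in sgDAMP, CCND1, CCNE1 and CDK2 are lower in every sgDAMP library, and CCND2 is at 0.

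Footprint change was then set against mRNA change in 1 model with an interaction of assay and condition, in which each summed footprint group is assumed to vary like the mRNA libraries. Of 19357 genes, 50 passed (0.258%), 44 of them lower in sgDAMP (0.227%) and 6 higher (0.031%). None of the 9 tested genes of the set passed with edgeR or DESeq2, and E2F1 alone had an unadjusted edgeR p under 0.05, at 0.0349. All 9 estimates lay below 0, with a median of -0.66 against 0.00 for all genes, though the sign of CCND1, CCND3 and CDK6 turned with the scaling or with a single library left out. The estimate for E2F1 was -1.97 (SE 0.86, edgeR adjusted p = 0.868), that for RB1 -0.86 (SE 0.73) and that for CCNE1 -0.66 (SE 0.62). With errors of this size, differences of the order seen in the footprints of CCND1 and CCNE1 were not detectable in this fit. CDK4 passed, with footprints relative to mRNA that fell by 6.80 on the log2 scale (SE 0.71, edgeR adjusted p = 1.57e-04).

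**Figure D3:**
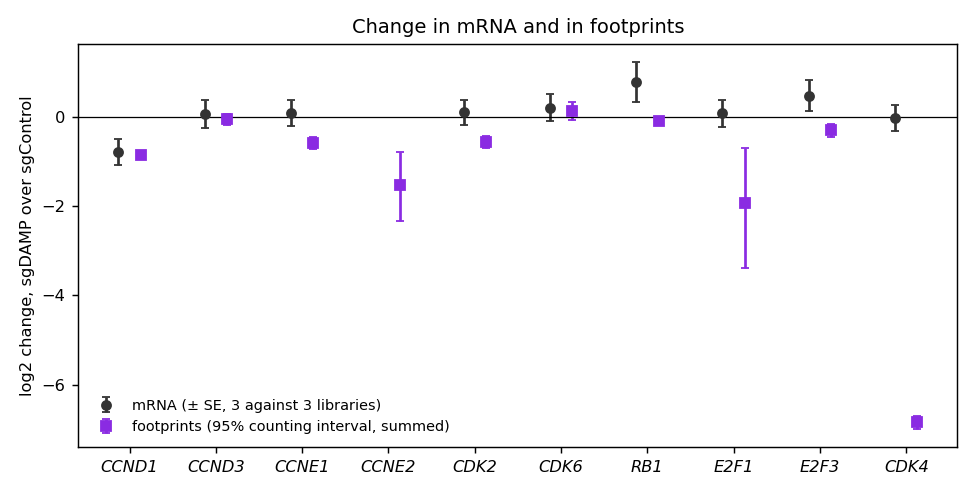
Log2 change of sgDAMP over sgControl for each gene. Circles show mRNA with the SE from the edgeR fit of 3 against 3 libraries, and squares show summed footprints with the 95% counting interval. CCND1 is lower in both assays at -0.80 and -0.85. CCNE1, CDK2 and E2F1 are lower in footprints alone, at -0.59, -0.57 and -1.94, with CDK2 short of the 1.5-fold limit. CCNE2 footprints lie at -1.5, and those of CCNE2 and E2F1 rest on few counts. CDK4 footprints lie at -6.85 beside an mRNA value of -0.03. No mRNA value passed the test, and CCNE2 mRNA was not tested.

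The other genes of the pathway were grouped in lists, and none of them passed the mRNA test. Among G1 kinases and their partners, 3 of 8 had lower and 1 had higher footprints in sgDAMP, beside 11.3% lower and 14.1% higher among all genes. Besides CDK4, MNAT1, the assembly factor of the CDK-activating kinase, fell to a ratio of 0.0803 (interval 0.0767 to 0.0841) and CKS2, a CDK subunit, to 0.644, while CCNH, the cyclin of the CDK-activating kinase, rose to 1.64. CKS2 moved to 0.751 with total counts and CCNH to 1.42 without sgDAMP footprint replicate 3, both short of the limit. Of the 3 CDK inhibitors with enough counts, CDKN1B (p27) was lower at 0.0899 (interval 0.0839 to 0.0961) and CDKN1A (p21) was higher at 2.29 (interval 2.18 to 2.40). CDKN1A footprints were 106, 103 and 108 CPM in sgControl and 276, 276 and 292 CPM in sgDAMP. These 2 inhibitors thus differed in opposite directions in the summed libraries. In sgControl, MNAT1 footprints stood at 1156, 932 and 1156 CPM and those of CDKN1B at 378, 483 and 465 CPM. With this spread at such high counts, the counting intervals of MNAT1 and CDKN1B may be too narrow. In Scramble footprints MNAT1 stood at 4.22, 14.5 and 5.37 CPM, below every sgDAMP library (99 to 103 CPM). CDKN1B in Scramble footprints stood at 11.0, 13.5 and 1.54 CPM, from 13, 14 and 2 counts, beside 44 to 49 CPM in the sgDAMP libraries. A far smaller part of the Scramble footprint counts fell on protein-coding genes, and CPM do not correct for this. The CPM values therefore do not show that CDKN1B footprints were lower in Scramble than in sgDAMP.

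Among the other E2F and pocket protein genes, 3 of 10 were lower and 1 was higher by TMM, beside 11.3% and 14.1% of all genes. With total counts 2 were lower and 3 higher, beside 934 lower and 3228 higher among all 14289 genes. TFDP1, the dimer partner that E2F factors need to bind DNA, fell from 11349 to 1200 counts, a ratio of 0.103 (interval 0.0965 to 0.109). Its sgControl footprints stood at 534, 492 and 492.5 CPM, so this interval may be too narrow. In Scramble footprints TFDP1 stood at 11.0, 5.80 and 0.77 CPM, below every sgDAMP library (57.3 to 62.2 CPM). These CPM do not correct for the smaller coding share of the Scramble footprints. TFDP2, a second dimer partner, was higher at 2.53 (interval 1.66 to 3.97) but rests on 31 and 81 counts. The repressive factors E2F6 and E2F8 were lower at 0.592 and 0.527. E2F6, with 59 and 36 counts, was no longer lower with total counts (0.689), nor without sgControl footprint replicate 1 (0.639) or sgDAMP footprint replicate 1 (0.623) or 2 (0.629). No gene of the 6 in the MuvB and DREAM list passed the limit. DREAM is a complex that represses cell cycle genes in quiescence. Of 7 cyclin turnover genes, SKP2, which targets p27 for degradation, was lower at 0.586, and FBXO4 and AMBRA1, both tied to cyclin D1 turnover, were higher at 1.53 and 1.60. The shares among all genes were again 11.3% lower and 14.1% higher. With total counts SKP2 moved to 0.683 and was no longer lower. FBXO4 fell short of the limit at 1.48 and 1.49 without sgControl footprint replicate 2 or 3.

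The 33 E2F targets, mostly DNA replication genes, had lower footprints in 17 cases and higher in 0, beside 11.3% and 14.1% of all genes, with a median log2 ratio of -0.61 against 0.01 for all genes. With total counts the numbers were 14 and 1, beside 934 and 3228 of all 14289 genes, and the median was -0.39 against 0.23. EZH2, a histone methyltransferase, had 1668 and 59 summed footprints, a ratio of 0.0343 (interval 0.0260 to 0.0445). RRM1, the large subunit of ribonucleotide reductase, had 104963 and 7435, a ratio of 0.0687 (interval 0.0671 to 0.0703). In sgControl, RRM1 footprints stood at 4476, 4652 and 4860 CPM and EZH2 footprints at 80.9, 68.0 and 74.6 CPM. Both intervals may be too narrow for this spread. In Scramble footprints RRM1 stood at 11.0, 17.4 and 3.07 CPM, below every sgDAMP library (364 to 382 CPM). EZH2 in Scramble footprints stood at 5.07, 3.86 and 1.54 CPM, from 6, 4 and 2 counts, beside 2.34 to 3.35 CPM in sgDAMP. Protein-coding genes held a far smaller share of the Scramble footprint counts, so these CPM do not show like EZH2 levels. FBXO5, an inhibitor of the anaphase-promoting complex, stood at 0.412 and BRCA1, a DNA repair gene, at 0.437. The replicative helicase genes MCM2, MCM3, MCM4 and MCM5 lay between 0.477 and 0.555, whereas MCM6 at 0.673 and MCM7 at 0.777 did not pass. PCNA, TYMS and E2F7 had ratios from 1.26 to 1.47, also short of the limit. In mRNA 0 of the 33 passed, 19 were above 0 and 14 below, and the median was 0.22 against 0.03 for all genes. EZH2 and RRM1 were the targets that passed the interaction test, at -5.23 (SE 0.77) and -4.21 (SE 0.68) on the log2 scale, with edgeR adjusted p = 0.00458 and 0.00896.

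**Figure D4:**
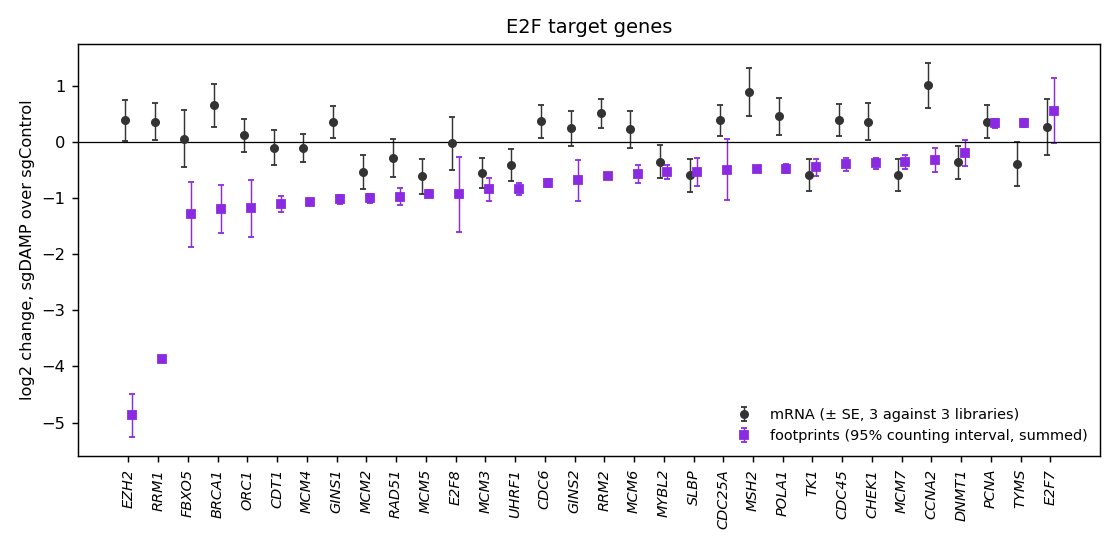
Log2 change of sgDAMP over sgControl for 32 of the 33 E2F target genes, ordered by footprint ratio. Circles show mRNA (SE from the edgeR fit of 3 against 3 libraries) and squares show summed footprints (95% counting interval). Footprints of 29 of the 32 lie below 0, EZH2 and RRM1 furthest, while mRNA values scatter on both sides of 0.

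The Scramble libraries are a second control set, and their mRNA was compared with sgControl mRNA. These groups also differ in how many reads went to no gene (54.0% to 54.4% against 22.2% to 23.9%), so the processing or run and the condition cannot be told apart, and 79.6% of 16360 genes were called. Of the 9 genes tested, 4 were higher in Scramble (background 46.1%) and 4 lower (background 33.4%), which is near the background. E2F1 stood at 9.96, 10.1 and 10.2 CPM in Scramble, a log2 difference from sgControl of -3.95 (SE 0.27, edgeR adjusted p = 1.75e-06). CCND3 stood at 85.4, 83.0 and 86.7 CPM there, a difference of -3.23 (SE 0.23), and CCNE1 at 18.4, 17.5 and 16.4 CPM, a difference of -1.93 (SE 0.18). CDK6 at 74.9, 78.2 and 56.8 CPM, RB1 at 21.1, 27.9 and 22.2 CPM and E2F3 at 24.7, 28.3 and 25.1 CPM lay above every sgControl library. Their differences were 1.99 (SE 0.19), 2.44 (SE 0.36) and 1.24 (SE 0.23). These 6 differences kept their direction and passed with total counts and with DESeq2 size factors, whereas the CDK2 difference of -0.61 (edgeR adjusted p = 0.0162) became 0.22 with total counts. CCND1 stood at 446, 423 and 415 CPM in Scramble, higher than in each sgControl library, yet its scaled difference was 0.00 (SE 0.18) and 0.83 with total counts. CCNE2, with 39, 22 and 43 counts in Scramble against 0, 0 and 5, differed by 4.06 (SE 0.78), a value that was 8.0 without sgControl replicate 3, which holds all the sgControl reads. The median of all genes moved from 0.42 to 1.25 between these scalings, and calls went from 7544 higher and 5471 lower to 9708 and 3156. The E2F targets were lower in Scramble in 21 of 33 cases and higher in 4, with TK1 at -4.50, CDT1 at -4.09 and MYBL2 at -3.47.

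Within Scramble cells, footprints were compared with mRNA, where the scaling sets the zero point, with the median gene at -0.68 by TMM and -3.53 by total counts. At TMM scaling 44.5% of 14432 genes were called, 17.1% higher in footprints and 27.4% lower, or 2464 and 3954 genes, against 481 and 13049 by total counts. Of the 9 genes tested, CCND1 was lower, and CCND3 and RB1 were higher. CCND1 had 26, 23 and 5 footprints beside 5198, 5249 and 4511 mRNA counts, a log2 difference of -1.96 (SE 0.26, edgeR adjusted p = 7.32e-07), and it was lower under each scaling tried. CCND3 had 59, 39 and 10 footprints beside 994, 1031 and 941 mRNA counts, a difference of 1.37 (SE 0.22, edgeR adjusted p = 1.02e-05), but -1.43 with total counts and 0.37 (adjusted p = 0.106) when only genes with 10 or more counts in each library were tested. RB1 had 9, 10 and 6 footprints, and its difference of 1.13 (SE 0.38, edgeR adjusted p = 0.0177) became -1.74 with total counts. It no longer passed without Scramble footprint replicate 2 (adjusted p = 0.11) or replicate 3 (adjusted p = 0.0635), or with a replicate block (adjusted p = 0.0867). The other 6 genes had 3 to 22 footprints over the 3 libraries and did not pass. CDK6 passed without Scramble footprint replicate 3 (-1.53, edgeR adjusted p = 0.00635) and E2F1 without replicate 2 (1.62, edgeR adjusted p = 0.0273). With total counts CCNE1, CDK2, CDK6, E2F1 and E2F3 were all lower in footprints. Of the E2F targets 19 of 32 were higher in footprints at TMM scaling, with a median of 1.45 against -0.68 for all genes. With total counts CCNA2, TK1 and PCNA no longer passed, at 0.02, 0.58 and -0.45 (edgeR adjusted p = 0.958, 0.118 and 0.427). The direction of PCNA thus turned. How many of the 32 pass with total counts is not given here.

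The footprint to mRNA ratio of a gene, with each assay relative to its protein-coding counts, set the genes of this machinery far apart. No correction was made for the coding share of each transcript's length. In sgControl it was 59.2 for RB1, at percentile 98.8 of the 9288 genes with at least 30 counts in both assays, and 0.130 for CCND3, at percentile 14.6. In sgDAMP the same ratios were 35.2 and 0.130, at percentiles 98.3 and 11.3 of 9637 genes. In Scramble they were 1.83 for RB1, from 25 footprints, and 2.22 for CCND3, at percentile 73.0 of 2928 genes. CDK4 went from 9.92 in sgControl (percentile 86.4) to 0.0973 in sgDAMP (percentile 8.12), and stood between them at 0.920 in Scramble (percentile 33.9). CCND1 was at 2.94 and 3.08 in these conditions, but at 0.220 in Scramble, at percentile 2.25. E2F1 had 26 footprints beside 4496 mRNA counts in sgControl and 7 beside 5221 in sgDAMP, but 10 beside 353 in Scramble. Across genes the rank correlation of footprints with mRNA was 0.497 in Scramble, 0.313 in sgControl and 0.369 in sgDAMP, a description of genes that are not independent replicates. Footprints of sgControl and sgDAMP correlated more with Scramble mRNA, at 0.440 and 0.474, than with the mRNA of their own condition. The labels do not give the strand setting of the counting. Values of CCND2, CCND3, CCNE2, CDK6, RB1 and E2F3, whose spans overlap other annotated genes, are therefore uncertain. CCND1, CCNE1, CDK2 and E2F1 have no overlapping gene in the annotation.

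**Figure D5:**
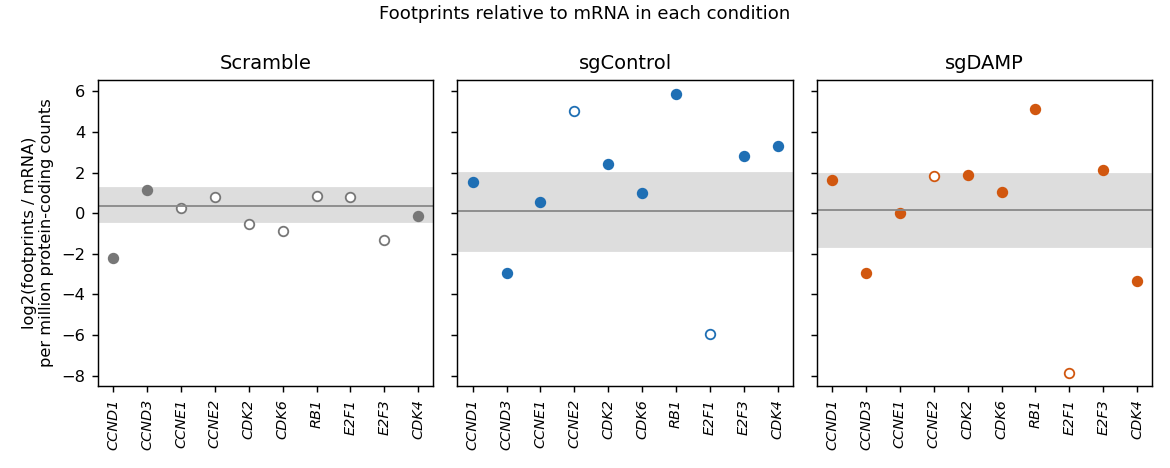
Log2 ratio of footprints to mRNA, each relative to protein-coding counts, in each condition, summed over 3 libraries, with the median (line) and the range between the quartiles of all genes (grey band). Filled points have at least 30 counts in both assays and open points fewer. RB1 lies highest and E2F1 lowest in sgControl and sgDAMP, and CDK4 moves from 3.31 to -3.36 between them.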

How the data were processed

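mRNA and ribosome footprints were counted in 18 libraries. The deposited values are raw counts per gene in the form HTSeq writes. The submitters' processing notes list HTSeq 0.11.2, HISAT2 2.1.0, Trimmomatic 0.30 and SAMtools 1.10, as well as edgeR, and the build GRCh38. The annotation release and strand setting are not stated there. The 5 closing lines per file, reads assigned to no gene, were left out; they held 22.2% to 54.4% of mRNA reads and 65.8% to 95.8% of footprint reads.

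Computed here were CPM, and tests with edgeR 4.0.16 in R 4.3.3 (quasi-likelihood, TMM scaling, filterByExpr with a minimum count of 10, Benjamini-Hochberg adjustment over all genes tested, two-sided, threshold 0.05), after a check of the scripts on simulated data. SE values were derived from the log2 difference and the F statistic of the edgeR test, whose variance estimates share information across genes. Those of mRNA comparisons and of Scramble footprints come from fits of 3 libraries per group. Those of the interaction come from a fit with 1 summed sample per footprint group. sgControl and sgDAMP footprints were summed per group, with exact Clopper-Pearson 95% intervals. These, and floors of 3 counts, reflect counting error alone, since no molecular identifiers are described. Replicate numbers of different groups gave deviations correlated from -0.543 to 0.485, with no sign of pairing, so no block was used. Alternatives were other scalings and filters, DESeq2 1.42.0, a replicate block and leaving out each library. Leaving out sgControl mRNA replicate 3 and sgDAMP mRNA replicate 2 together was added after seeing the data.

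The 10 genes were named in every comparison, as was CDK4. From each other list came up to 4 called genes with the smallest p or, for summed footprints, the largest absolute log2 ratio. MCM genes, PCNA, TYMS and E2F7 in the footprints were named after their values were seen. Genes and lists were chosen with earlier results of these data known. E2F targets and the other lists come from general knowledge and share genes with one another. Values of 1 E2F target are not reported here.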

Additional observations from a re-analysis of the deposited data

Results flagged for a closer look

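The change in footprints and the change in mRNA between sgDAMP and sgControl differed, by the interaction test of edgeR, for 5 genes of the pathway lists, none of them among the 10 genes. Footprints relative to mRNA were lower in sgDAMP by a log2 value of -6.80 for CDK4, -5.23 for EZH2, -4.21 for RRM1, -3.63 for CDKN1B and -3.51 for TFDP1. Scramble footprints of these 5 genes also stood far below those of sgControl in CPM. The Scramble libraries hold few protein-coding counts, and their footprints were not tested against those of sgControl or sgDAMP. The adjusted p of CDKN1B was 0.0295 and reached 0.139 with total counts, 0.0847 without sgControl mRNA replicate 2, and 0.137 and 0.067 without sgDAMP mRNA replicate 1 or 3. That of TFDP1 was 0.0129 and reached 0.0506 without sgControl mRNA replicate 2. CDK4, EZH2 and RRM1 passed in each alternative run.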

How the results depend on the processing

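Counts of calls moved with the settings as follows. The mRNA comparison of sgDAMP with sgControl gave 0 genes, but 14 without a filter, 21 with DESeq2, and 0 to 6 when a library was left out, 6 without sgControl replicate 3. Summed footprints gave 3634 genes, 2211 with at least 100 summed counts, 6957 with libraries as replicates and 3265 to 3318 without a library. The interaction gave 50 genes, 451 with footprint libraries as replicates and 34 to 70 without a library. Scramble footprints against mRNA gave 6418 genes, 13530 with total counts, 1143 with at least 10 counts in every library and 4736 to 6525 without a library.

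With the replicate block the counts were 0, 12378 (Scramble against sgControl mRNA, 13015 without it), 4704 (Scramble footprints), 61 (interaction) and 6965 (footprint libraries as replicates). Among the 10 genes the block ended the calls of RB1 in Scramble footprints and of CDK2 between Scramble and sgControl mRNA (-0.61, adjusted p = 0.0631).

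Reversed log2 values were these; the cause was not tested. Between sgDAMP and sgControl mRNA, total counts gave 0.09 for CDK4, and omitting both libraries that stand apart gave -0.06 for CCNE1. Leaving out single libraries gave -0.19 to 0.29 for CCND3, -0.20 to 0.21 for CCNE1, -0.17 to 0.16 for CDK4, -0.01 to 0.32 for CDK6 and -0.19 to 0.26 for E2F1. Between Scramble and sgControl mRNA, CCND1 was -0.11 with DESeq2 size factors and with DESeq2, and -0.17 to 0.11 without a library, and CDK2 was 0.22 with total counts. In the interaction CCND1 was 0.02 with total counts, and leaving out libraries gave -0.18 to 0.19 for CCND1, -0.35 to 0.12 for CCND3 and -0.18 to 0.12 for CDK6. In Scramble footprints against mRNA, total counts gave -1.43 for CCND3, -2.35 for CCNE1, -1.80 for CCNE2, -1.83 for E2F1, -1.74 for RB1, -2.69 for CDK4, -1.47 for MNAT1 and -0.45 for PCNA. CDK4 was -0.05 without a filter and -0.88 with at least 10 counts in every library. Leaving out libraries gave -0.02 to 0.74 for CCNE1, -7.42 to 1.61 for CCNE2, -1.25 to 0.48 for CDK2 and -0.24 to 0.31 for CDK4.

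Depth limits E2F1 and CCNE2 footprints, with 33 and 80 reads over both conditions, and the Scramble footprints of all genes but CCND1 and CCND3. The summed footprint groups have no replicate spread, so their ratios describe these libraries.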
